A study of Mus musculus with 16 samples.

Results

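The genes for 8 G protein-coupled receptors were followed through 4 groups of brain macrophages, and all 8 of the 24411 genes of the count table that carry these names were found: Gpr65, Gpr84, Gpr34, Gpr183, Gpr132, Gpr160, Gpr35 and Gpr18. The genes were chosen by name, and Gpr65 was noted beforehand for opposite patterns in the 2 cell populations of the study, so that its values are given as a description without a test. Gpr65 and Gpr132 belong to the proton-sensing receptors, whereas the other 6 bind lipids or metabolites or have no settled ligand, and the group is therefore mixed in function.

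G protein-coupled receptors cross the plasma membrane with 7 helices and pass the binding of a ligand on to heterotrimeric G proteins. Receptors coupled to Gs raise cyclic AMP through adenylyl cyclase, receptors coupled to Gi lower it, and receptor kinases, arrestins and regulators of G protein signalling (RGS proteins) end the signal. In macrophages, such receptors read the acidity, lipids and metabolites of the surrounding tissue. Gpr65 (also TDAG8) is a Gs-coupled sensor of extracellular protons, and Gpr132 (also G2A) is its relative with a weaker response to protons that also binds oxidised fatty acids. Gpr84 is a Gi-coupled receptor for medium-chain fatty acids and is known for its induction by endotoxin in myeloid cells. Gpr34 binds lysophosphatidylserine and is one of the genes by which microglia are usually recognised. Gpr183 (also EBI2) guides immune cells along gradients of oxysterols. Gpr35 responds to kynurenic acid among other metabolites, N-arachidonyl glycine has been proposed as a ligand of Gpr18, and Gpr160 remains an orphan receptor.

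The cells came from the brains of C57BL/6J wild-type mice that had been irradiated with 950 cGy and had received bone marrow of wild-type donors with the CD45.1 allele. Engrafted cells (CD45.1, derived from the graft) and host microglia (CD45.2, irradiated with the recipient) were sorted from the same brain. The sort took CD11b-positive cells with low CD45 and without Ly6C or Ly6G. Mice 1 to 4 were taken 12 h after an intraperitoneal injection of 2.5 mg/kg LPS, the endotoxin of Gram-negative bacteria. Mice 5 to 8 had no LPS and were labelled 12 h controls, and a mock injection is neither stated nor excluded. This gave 4 groups of 4 libraries, prepared with a modified MARS-seq protocol, which sequences the 3′ ends of polyadenylated RNA. All host microglia were irradiated, and the labels give neither age nor sex. By the results text of the study, the cells were taken 9 months after transplantation. The labels name 3.5 or 9 months without assigning them to single mice. The libraries held 395283 to 1203597 reads on genes, the fewest being those of engrafted cells of LPS-treated mouse 4. Levels are given as CPM (counts scaled to a library of common size), scaled by the TMM method of edgeR. A count of 0 allows up to 3 reads, which corresponded to 2.39 to 8.41 CPM depending on the library and covers counting error only.

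The sorted cells were checked against markers. All 8 microglia markers (among them P2ry12 and Tmem119) were above 3 reads in at least 1 library of every group, and without LPS they summed to 10563 to 12457 CPM in engrafted and to 19194 to 22183 CPM in host cells, against 3136 to 4309 and 8152 to 9093 CPM with LPS. Of 7 monocyte markers, 5 were detected in engrafted cells without LPS (200.5 to 324 CPM in sum) and all 7 with LPS (1119 to 2262 CPM), the highest being Ly6c2 with a mean of 716 CPM, although the sort had been against Ly6C. In host microglia, the same sum reached at most 25.5 CPM, and Chil3 had no read without LPS. The part of these markers in the values of the receptor genes was not tested. Markers of T and NK cells, which also use Gpr65, Gpr183 and Gpr18, summed to at most 28.0 CPM in any library, and of 6 B cell markers, Cd79b alone passed 3 reads (group means of 20.2 to 53.7 CPM), while Cd79a and Pax5 had no read in any library. Of 10 neutrophil markers, 5 passed 3 reads in engrafted cells without LPS (206 to 614 CPM in sum) and 7 with LPS (78.1 to 271 CPM), among them Ngp with means of 96.7 and 80.1 CPM. In host microglia, the neutrophil sum was 146 to 274 CPM without and 51.8 to 91.8 CPM with LPS, most of it Csf3r (197 and 66.7 CPM), and Ngp had at most 1 read. The part of these lists in the receptor values was not tested either. In such sorted populations, fewer cells of a type and less RNA per cell cannot be told apart.

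All 8 receptors are encoded on the mm9 genome by short proteins of 307 (Gpr35) to 396 (Gpr84) residues. The coding sequence lies within 1 exon in 7 genes and in 2 exons in Gpr132. Despite the shared name, the proteins resembled each other little. Over the 28 pairs of the 8 receptors, identity in global alignments ranged from 19.4 to 32.3% (median 25.7%). Gpr65 and Gpr132 had 31% identical residues, whereas both were closer to Gpr4, another proton sensor, with 38.7% for Gpr65 and 37.3% for Gpr132.

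The 300 bases before the start of the counted transcript model are shown for the 3 genes whose largest fitted log2 fold change in a single comparison was beyond 3 in size (Gpr132 in unchallenged host microglia was too low for a fit), Gpr65 (chr12:99506545-99506844, plus strand), Gpr34 (chrX:13209595-13209894, plus strand) and Gpr18 (chr14:122314997-122315296, minus strand, mm9). They are written 5′ to 3′ in the direction of transcription, and capitals mark the only match to the motifs searched, an interferon-stimulated response element (ISRE) in Gpr18.
Gpr65: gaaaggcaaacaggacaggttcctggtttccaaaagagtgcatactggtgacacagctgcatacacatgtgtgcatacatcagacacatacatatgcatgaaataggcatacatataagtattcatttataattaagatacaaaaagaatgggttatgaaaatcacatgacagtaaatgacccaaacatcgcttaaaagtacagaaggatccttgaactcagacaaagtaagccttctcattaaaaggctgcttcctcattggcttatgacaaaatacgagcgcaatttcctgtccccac
Gpr34: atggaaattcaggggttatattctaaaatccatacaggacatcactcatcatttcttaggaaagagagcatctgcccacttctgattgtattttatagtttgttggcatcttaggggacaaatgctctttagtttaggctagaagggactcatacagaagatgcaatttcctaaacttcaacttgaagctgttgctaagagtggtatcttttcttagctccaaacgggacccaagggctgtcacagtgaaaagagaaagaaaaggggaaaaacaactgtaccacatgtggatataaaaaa
Gpr18: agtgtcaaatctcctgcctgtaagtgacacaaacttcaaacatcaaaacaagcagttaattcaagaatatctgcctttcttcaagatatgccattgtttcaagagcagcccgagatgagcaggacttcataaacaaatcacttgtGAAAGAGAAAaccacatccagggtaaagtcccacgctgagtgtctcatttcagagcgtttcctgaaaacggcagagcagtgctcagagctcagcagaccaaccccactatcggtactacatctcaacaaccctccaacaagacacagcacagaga

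The motifs searched on both strands of this window were NF-kB (GGGANNNTCC), ISRE (GAAANNGAAA), AP-1 (TGANTCA), CRE (TGACGTCA) and PU.1 (GAGGAAGT), none of which overlapped another in the 8 genes. Gpr18 held the ISRE letters on the sense strand, beginning 155 bases before the start. Among all 24341 windows of the same length, 3.86% held the ISRE, 4.63% the NF-kB, 7.19% the AP-1, 2.13% the CRE and 2.67% the PU.1 letters. The other 7 genes had no match, which says only that these letters are not in this window. The windows of the 3 genes were poor in G and C, with 38.7% in Gpr65, 38.7% in Gpr34 and 44.7% in Gpr18, against a median of 54% over all windows, and Gpr160 had the highest share among the 8 genes (63.3%).

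Gpr65 (NM_008152, chr12:99506845-99514932, plus strand) had a high level in engrafted cells and a low level in host microglia of unchallenged mice. Engrafted cells of mice 5 to 8 had 564, 351, 447 and 421 CPM (446 ± 88.8, mean ± SD, n = 4), and host microglia of the same mice had 36.6, 26.2, 33.5 and 26.6 CPM (30.7 ± 5.16, n = 4). Every engrafted library stood above every host library, and within a mouse the engrafted cells had 13.4 to 15.9 times the level of the host microglia. The fitted log2 fold change was 3.93 ± 0.18 (SE).

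After LPS the order was turned. Engrafted cells of mice 1 to 4 had 381, 268, 401 and 149 CPM (299.8 ± 116, n = 4), and host microglia of the same mice had 427, 335, 452 and 424 CPM (409 ± 51.1, n = 4). The 2 sets of libraries overlapped, yet the host microglia were higher within each of the 4 mice, by 1.12 to 2.86 times. The log2 fold change between populations was -0.42 ± 0.25 (SE), and it was -0.21 without the engrafted library of mouse 4, which was the shallowest of all and held 53 reads of Gpr65.

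Between unchallenged and LPS-treated mice, the log2 fold change of Gpr65 in host microglia was 3.73 ± 0.18, with no overlap between libraries. In engrafted cells the log2 fold change was -0.60 ± 0.24 with overlapping libraries, and -0.39 without the engrafted library of mouse 4. The difference between both responses was -4.34 ± 0.33 on the log2 scale. In the order of group means, engrafted cells without LPS, host microglia with LPS and engrafted cells with LPS were neighbours whose libraries overlapped, and only host microglia without LPS stood apart from the other 3 groups. All of these values are a description, since this pattern was the reason for choosing the gene.

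**Figure D1:**
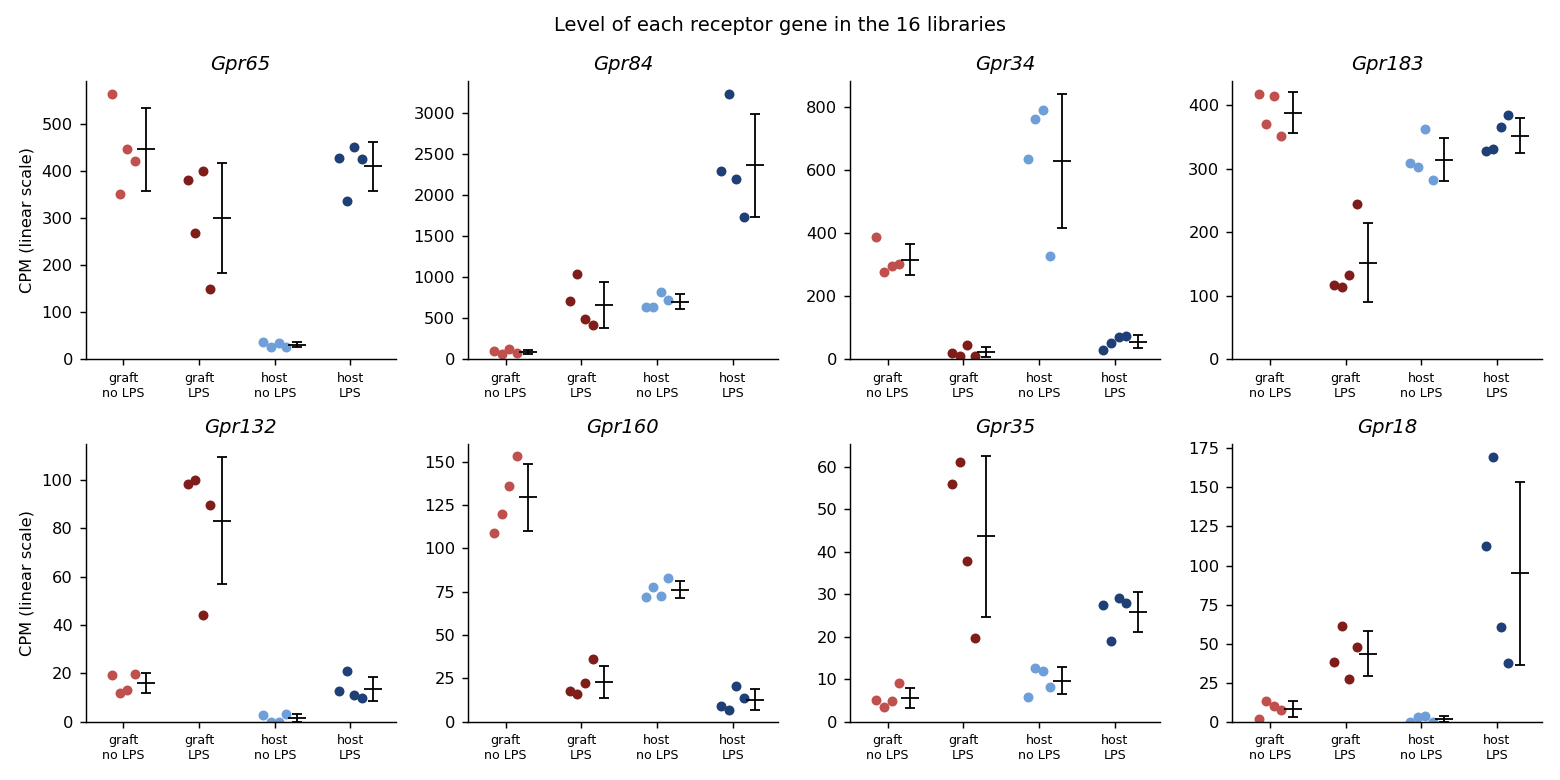
Level of the 8 receptor genes in CPM (linear axes from 0, each gene with its own scale) in engrafted cells and host microglia without and with LPS, with 1 point per library and a black bar for the mean ± SD of 4 libraries. Gpr65 was low in host microglia without LPS alone (30.7 CPM), Gpr34 and Gpr160 were low in both populations after LPS, and Gpr183 was low in engrafted cells after LPS (152 CPM).

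Gpr132 (NM_019925, chr12:114089087-114099127, minus strand), the other proton-sensing receptor of the set, had few reads in resting cells. Engrafted cells without LPS had 19.1, 11.8, 13.1 and 19.8 CPM (15.96 ± 4.09, n = 4; 7 to 19 reads), whereas the host microglia of these mice had 2, 0, 0 and 3 reads. No library of the 2 groups overlapped, and engrafted cells were at least 5.00-fold higher than the limit of detection of the host group, taken at 3 reads per library. As the gene could not be tested across genes here, an exact permutation test was used (two-sided p = 0.0286, unadjusted and the smallest that 4 against 4 libraries allow, 1 of 4 such tests run). This test took the libraries as independent, although engrafted and host libraries came in pairs from the same mice.

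With LPS, Gpr132 rose in engrafted cells to 98.4, 100.04, 44.2 and 89.7 CPM in mice 1 to 4 (83.1 ± 26.3, n = 4). All of these were above the unchallenged libraries, and the log2 fold change was 2.30 ± 0.30 (SE; edgeR quasi-likelihood test, adjusted p = 4.834e-06). Of the monocyte markers, Ly6c2 (mean 30.1 without and 716 CPM with LPS), Plac8 (20.8 and 404.9 CPM) and Chil3 (22.1 and 209.7 CPM) were also higher in these libraries with LPS, whereas Ccr2 was lower (155 and 46.2 CPM). Their part in this rise was not tested. Host microglia with LPS had 12.6, 20.9, 10.9 and 9.74 CPM (13.5 ± 5.07, n = 4), which was at least 4.24-fold above the limit of detection in unchallenged host microglia (exact permutation test, two-sided p = 0.0286, n = 4 per group). Engrafted cells remained above host microglia in every mouse, by 4.07 to 9.21 times with LPS, and by 2.59 ± 0.31 on the log2 scale (edgeR, adjusted p = 7.527e-06). Whether the response to LPS differed between populations was not detectable at this depth (interaction, edgeR, adjusted p = 0.497). Gpr132 was higher in engrafted cells of 4 of 4 mice both without and with LPS. For Gpr65, chosen for its pattern and only described, this held without LPS. With LPS it held in none of the 4 mice, and the Gpr65 libraries of both populations overlapped.

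Gpr4 hardly gave any reads. It had 0 to 4 reads per library and none in the engrafted cells after LPS, which allows up to 3 reads per library, and no comparison was made.

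Gpr84 (NM_030720, chr15:103138666-103140869, minus strand), the receptor for medium-chain fatty acids, was lower in engrafted cells than in host microglia in both states and rose with LPS in both populations. Without LPS, engrafted cells of mice 5 to 8 had 99.7, 59.0, 116 and 73.8 CPM (87.2 ± 25.7, n = 4), and host microglia had 637, 628, 814 and 723 CPM (701 ± 87.0, n = 4). The groups did not overlap, and the log2 fold change was -2.94 ± 0.17 (SE; edgeR, adjusted p = 2.668e-13).

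With LPS, engrafted cells of mice 1 to 4 had 710, 1036, 483 and 415 CPM of Gpr84 (661 ± 280.0, n = 4), and host microglia had 2286, 3227, 2194 and 1726 CPM (2358 ± 629, n = 4). Engrafted cells after LPS overlapped with host microglia of mice without LPS. They stayed below the host microglia of the same mouse by 3.12 to 4.54 times (log2 fold change -1.81 ± 0.27, edgeR, adjusted p = 6.752e-05). The mice came in the same order in both populations, with mouse 2 highest and mouse 4 lowest. Gpr84 rose by 2.87 ± 0.28 on the log2 scale in engrafted cells (adjusted p = 9.402e-08) and by 1.74 ± 0.17 in host microglia (adjusted p = 4.809e-08). The rise was 1.13 ± 0.33 larger in engrafted cells (interaction, edgeR, adjusted p = 0.03996), a call that rested on single libraries: it was lost when any of 10 of the 16 libraries was left out, with adjusted p between 0.0508 and 0.109, and under scaling to library totals (adjusted p = 0.0535). These were the engrafted libraries of mice 6, 8, 1 and 2 and the host libraries of mice 6, 7, 8, 1, 3 and 4, and the log2 difference without any 1 library was 0.856 to 1.33.

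Gpr34 (NM_011823, chrX:13209895-13217984, plus strand), the lysophosphatidylserine receptor, showed the deepest fall of the set. Engrafted cells without LPS had 388, 276, 297 and 301 CPM (315 ± 49.4, n = 4) and host microglia had 637, 763, 789.6 and 328 CPM (629 ± 212, n = 4). Host microglia were higher in each of the 4 mice, by 1.09 to 2.76 times, although the host library of mouse 8 lay within the engrafted range. The difference of -0.94 ± 0.19 on the log2 scale had an adjusted p of 0.0003881 (edgeR) but stayed within 2-fold, and it passed 2-fold without the engrafted library of mouse 5 (-1.05), without the host library of mouse 8 (-1.15) and under scaling to library totals (-1.02).

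With LPS, Gpr34 dropped to 17.9, 10.98, 44.2 and 11.2 CPM in engrafted cells (21.1 ± 15.8, n = 4) and to 29.8, 49.9, 68.8 and 73.7 CPM in host microglia (55.6 ± 20.0, n = 4). No challenged library reached an unchallenged one of its population. The log2 fold change was -3.88 ± 0.30 in engrafted cells (edgeR, adjusted p = 3.914e-09) and -3.53 ± 0.26 in host microglia (adjusted p = 8.373e-10), and these did not differ beyond their error (interaction -0.37 ± 0.46, adjusted p = 0.7154). The summed microglia markers fell with LPS in both populations as well, and their part in the fall of Gpr34 was not tested. After LPS, engrafted cells were lower in each of the 4 mice but overlapped with host microglia (-1.30 ± 0.39, edgeR, adjusted p = 0.02526). That call was lost without the engrafted library of mouse 1 or 2 or the host library of mouse 3 or 4, with log2 fold changes of -1.19, -1.05, -1.19 and -1.14 and adjusted p of 0.089, 0.0948, 0.0729 and 0.0704. Gpr34 lies opposite to Cask, and the counting was by strand.

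Of the enzymes that handle the ligand of Gpr34, Abhd12, a lipase that degrades lysophosphatidylserine, moved with LPS in both populations. Without LPS it stood at 584 ± 77.9 CPM in engrafted and 1096 ± 89.5 CPM in host cells, and with LPS at 175 ± 25.5 and 545 ± 84.5 CPM (n = 4 each). The log2 fold change with LPS was -1.78 ± 0.19 in engrafted cells (edgeR, adjusted p = 4.21e-07) and -1.02 ± 0.15 in host microglia (adjusted p = 8.592e-06). Abhd16a, which makes lysophosphatidylserine, stood at 118 ± 20.8 CPM in engrafted and 141 ± 28.7 CPM in host cells without LPS and passed no test in any of the 5 comparisons, with log2 fold changes between -0.20 and 0.02. Pla1a, a phospholipase that also forms this lipid, had at most 3 reads in a library.

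Gpr183 (NM_183031, chr14:122351553-122364415, minus strand), the oxysterol receptor, fell with LPS in engrafted cells, and no change was called in host microglia. Without LPS, engrafted cells had 418, 371, 415 and 351 CPM (389 ± 33.0, n = 4) and host microglia had 309, 302, 363 and 283 CPM (314 ± 34.3, n = 4). Engrafted cells were higher within each of the 4 mice, by 1.14 to 1.35 times, but the groups overlapped and the log2 fold change of 0.36 ± 0.13 (edgeR, adjusted p = 0.03434) was within 2-fold.

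With LPS, engrafted cells had 116, 113, 133 and 243.9 CPM of Gpr183 (152 ± 62.1, n = 4) and host microglia had 328, 331, 366 and 384 CPM (352 ± 27.2, n = 4). Mouse 4 was highest in both populations, and its engrafted library, the shallowest of the series, stood far from the other 3. Even so, every engrafted library with LPS was below every library of the other 3 groups. The log2 fold change with LPS was -1.43 ± 0.23 in engrafted cells (edgeR, adjusted p = 6.155e-05; -1.72 without mouse 4) and 0.15 ± 0.14 in host microglia (adjusted p = 0.4168). The 2 responses differed by -1.59 ± 0.28 (interaction, edgeR, adjusted p = 0.0005316), and the populations differed by -1.22 ± 0.25 after LPS (adjusted p = 0.001717). Gpr183 and Gpr18 both lie opposite to Ubac2, and the counting was by strand.

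Ch25h, the cholesterol 25-hydroxylase that takes the first step to the ligand of Gpr183, rose with LPS in both populations. Host microglia with LPS had 959.9, 1780, 197 and 84.9 CPM in mice 1 to 4, against 12.3 to 28.2 CPM without LPS, a log2 fold change of 5.17 ± 0.65 (edgeR, adjusted p = 1.605e-06). These 4 mice differed widely, and mice 2 and 1 were also the highest for Gpr84 and Gpr18 in host microglia. Engrafted cells rose from 28.7 to 52.4 CPM without LPS to 89.8 to 143 CPM with LPS (log2 fold change 1.46 ± 0.22, adjusted p = 2.909e-05), and the rise was smaller than in host microglia by 3.71 ± 0.81 (interaction -3.71, adjusted p = 0.004814). Between populations, engrafted cells had more Ch25h without LPS (1.06 ± 0.27, adjusted p = 0.003915) and less with LPS (-2.64 ± 0.62, adjusted p = 0.005508). The libraries with LPS overlapped. In mouse 4 the engrafted cells were higher (100.9 against 84.9 CPM), and in the other mice with LPS the host microglia were. Hsd3b7, which degrades the oxysterol, passed the test in no comparison (log2 fold changes between -0.38 and 0.36), and Cyp7b1, which takes the second step of the synthesis, had at most 2 reads in a library. Among the receptors and enzymes of this pathway, therefore, the receptor fell and the first enzyme rose in engrafted cells, while in host microglia the enzyme rose and no change was called for the receptor.

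**Figure D2:**
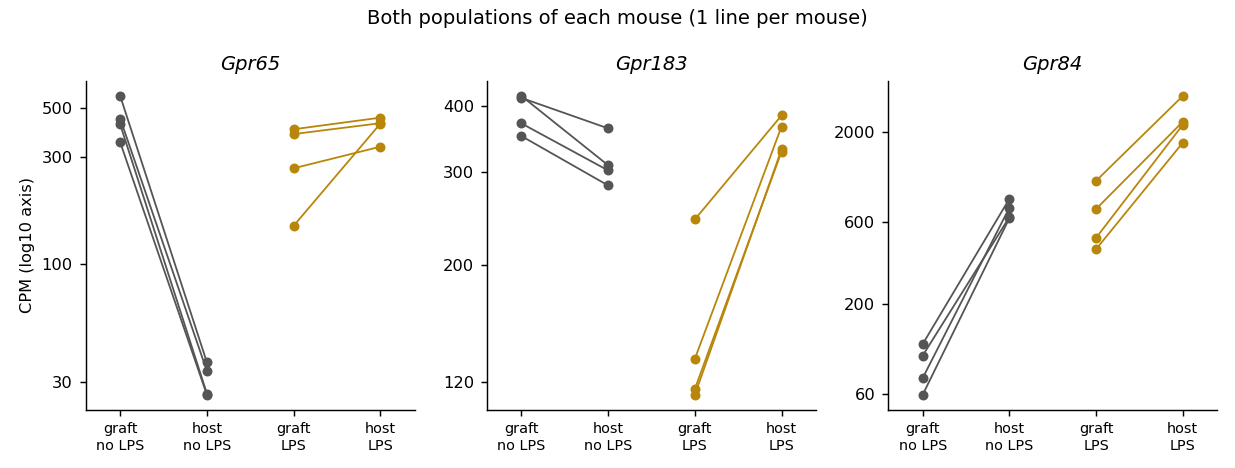
Level of Gpr65, Gpr183 and Gpr84 in both populations of each mouse (CPM, log10 axes), with 1 line per mouse, grey without LPS and gold with LPS. The lines of Gpr65 and Gpr183 slope down without LPS and up with LPS, in 4 of 4 mice each, whereas those of Gpr84 slope up in all 8 mice.

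**Figure D3:**
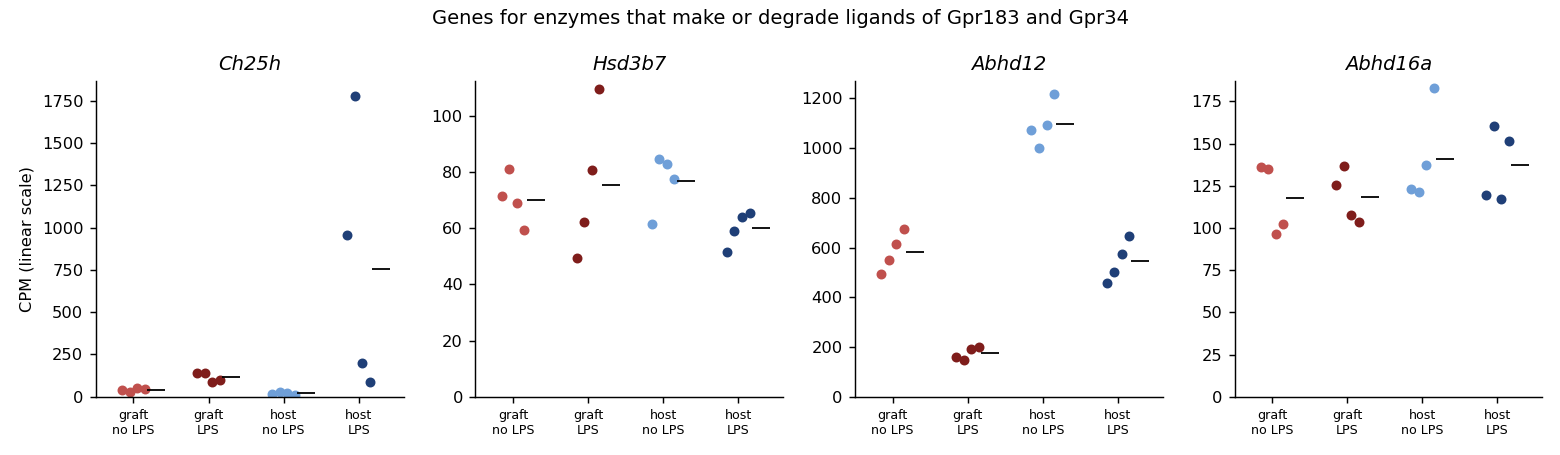
Level of the genes for enzymes that make (Ch25h, Abhd16a) or degrade (Hsd3b7, Abhd12) the ligands of Gpr183 and Gpr34, in CPM on linear axes, with 1 point per library and a black dash for the group mean of 4 libraries. Ch25h in host microglia with LPS ran from 84.9 to 1780 CPM, and Abhd12 was lower with LPS in both populations.

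Gpr18 (NM_182806, chr14:122310656-122314996, minus strand) was near the limit of detection without LPS and had the largest rise of the set in host microglia. Engrafted cells without LPS had 2, 8, 6 and 4 reads (8.13 ± 4.83 CPM, n = 4) and host microglia had 0, 3, 5 and 0 reads (1.73 ± 2.04 CPM, n = 4). An exact permutation test, which did not use the pairing by mouse, did not separate these groups (two-sided p = 0.0857). With LPS, engrafted cells had 38.0, 61.0, 27.3 and 47.7 CPM (43.5 ± 14.3, n = 4) and host microglia had 112, 169, 60.4 and 37.6 CPM (95.0 ± 58.7, n = 4). All challenged libraries were above all unchallenged ones. The log2 fold change was 2.46 ± 0.42 in engrafted cells (edgeR, adjusted p = 9.853e-05) and 5.49 ± 0.55 in host microglia (adjusted p = 5.002e-08), the latter against a group with 8 reads in all, so that its size is uncertain.

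The difference between the responses of Gpr18 was -3.00 ± 0.96 (interaction, edgeR, adjusted p = 0.05364) and missed the threshold, whereas it passed with the mouse as replicate block (-3.27, edgeR, adjusted p = 0.00252) and without the engrafted library of mouse 5 or 2 or the host library of mouse 4 (adjusted p = 0.027, 0.0444 and 0.0197). It also passed with DESeq2 (adjusted p = 0.0317), under scaling to library totals (edgeR, adjusted p = 0.0418) and without a filter for low counts (adjusted p = 0.000121). After LPS, engrafted cells were lower in 3 of 4 mice (-1.13 ± 0.37, edgeR, adjusted p = 0.04192) with overlapping libraries. That call was lost without the engrafted library of mouse 1 or 3 or the host library of mouse 1 or 2, with adjusted p of 0.124, 0.138, 0.106 and 0.186 and log2 fold changes of -1.05, -0.93, -1.05 and -0.70.

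Gpr35 (NM_001104529, chr1:94869696-94882968, plus strand), the receptor for kynurenic acid, rose with LPS in both populations from a low level. Engrafted cells had 5.04, 3.37, 4.92 and 9.00 CPM without LPS (5.58 ± 2.40, n = 4) and 55.9, 61.0, 37.7 and 19.6 CPM with LPS (43.6 ± 18.8, n = 4). Host microglia had 5.86, 12.6, 12.0 and 8.17 CPM without LPS (9.65 ± 3.20, n = 4) and 27.5, 18.9, 29.0 and 27.8 CPM with LPS (25.8 ± 4.62, n = 4). In each population the challenged and unchallenged libraries were separate, and the log2 fold changes were 2.98 ± 0.41 (edgeR, adjusted p = 6.858e-06) and 1.33 ± 0.30 (adjusted p = 0.001042).

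Between populations, Gpr35 overlapped without LPS (exact permutation test, two-sided p = 0.114, n = 4 per group) and with LPS (0.86 ± 0.29, edgeR, adjusted p = 0.05117), although the latter passed without the engrafted library of mouse 4 (1.03, adjusted p = 0.0066). The permutation test did not use the pairing by mouse. The responses differed by 1.66 ± 0.53 (interaction, edgeR, adjusted p = 0.06076), which passed without the engrafted library of mouse 8 or 4 or the host library of mouse 5 (adjusted p = 0.0489, 0.0212 and 0.0483) and without a filter for low counts (adjusted p = 0.0402).

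Gpr160 (NM_001286994, chr3:30754872-30796116, plus strand), the orphan receptor, fell with LPS in both populations. Engrafted cells had 109, 119.7, 136 and 153 CPM without LPS (129 ± 19.3, n = 4) and 17.9, 15.9, 22.1 and 36.4 CPM with LPS (23.1 ± 9.28, n = 4). Host microglia had 71.7, 77.7, 72.6 and 82.7 CPM without LPS (76.2 ± 5.09, n = 4) and 9.17, 6.98, 20.5 and 13.9 CPM with LPS (12.6 ± 6.00, n = 4). The log2 fold change was -2.63 ± 0.25 in engrafted cells (edgeR, adjusted p = 6.741e-08) and -2.62 ± 0.25 in host microglia (adjusted p = 3.179e-08), without overlap in either. The interaction was -0.02 ± 0.38 (adjusted p = 0.9946), a range that still leaves room for a difference in either direction. Engrafted cells had the higher level in 8 of 8 mice, by 1.52 to 1.87 times without LPS (log2 fold change 0.80 ± 0.14, edgeR, adjusted p = 0.0001042, within 2-fold) and by 1.08 to 2.62 times with LPS (0.80 ± 0.39, adjusted p = 0.179).

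**Figure D4:**
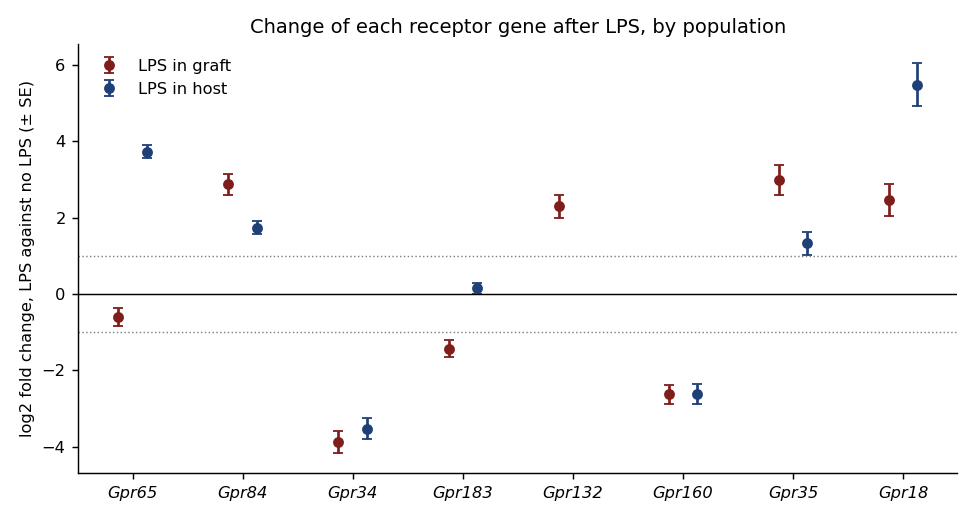
Log2 fold change of each receptor gene with LPS against no LPS in engrafted cells (red) and in host microglia (blue), with bars for ± 1 SE and dotted lines at 2-fold. Gpr34 and Gpr160 fell in both populations, Gpr84, Gpr35 and Gpr18 rose in both, and Gpr65 and Gpr183 lie apart between the populations; no point is drawn for Gpr132 in host microglia, where the unchallenged libraries had at most 3 reads.

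Counted over the 7 genes other than Gpr65, a gene was called when its fitted change exceeded 2-fold at an adjusted p below 0.05 (edgeR, over all genes tested). LPS in engrafted cells called 7 of the 7, with 4 higher (Gpr84, Gpr132, Gpr35 and Gpr18) and 3 lower (Gpr34, Gpr183 and Gpr160), where 21.5% of the 7609 genes tested were called (10.2% higher and 11.3% lower). LPS in host microglia called 5 of the 6 that passed the filter, with 3 higher (Gpr84, Gpr35 and Gpr18) and 2 lower (Gpr34 and Gpr160), where 18% of 8238 genes were called (7.66% higher and 10.4% lower). The interaction called 2 of 7, Gpr84 and Gpr183, 1 higher and 1 lower, against 4.95% of 8847 genes (2.45% higher and 2.5% lower). Between populations, Gpr84 was the 1 of 4 genes called without LPS, where 11% of 8042 genes were called (6.25% higher and 4.73% lower in engrafted cells), and 5 of 7 were called with LPS, 1 higher in engrafted cells (Gpr132) and 4 lower (Gpr84, Gpr34, Gpr183 and Gpr18), where 11.1% of 7843 genes were called (6.73% higher and 4.34% lower). Of the genes called between populations with LPS, 60.8% were higher in engrafted cells, and 48.7% under scaling to library totals, which moved the median of all genes by -0.147 on the log2 scale. The receptors had been proposed with results of these data in view, and genes left out by the filter are those with few reads, so these shares are descriptive. The comparisons share libraries, and the counts are not independent of one another.

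Other genes named Gpr were counted in the same way. Of 67 such genes, 9 to 11 had enough reads for a test in each comparison, and the median absolute log2 fold change was 0.18 to 0.78 against 0.32 to 0.50 over all genes. LPS called 2 of 9 (22.2%) in engrafted cells, against 21.5% of all genes tested, and 3 of 11 (27.3%) in host microglia, against 18%. Between populations, 1 of 11 (9.09%) was called without LPS, against 11% of all genes, and 2 of 9 (22.2%) with LPS, against 11.1%. These shares are a description. Each of these few calls was a fall with LPS or a lower level in engrafted cells. Gpr141, which the filter left out, had 0 to 1 read in the libraries of the other 3 groups and 2 to 20 reads (17.1 ± 8.55 CPM, n = 4) in engrafted cells with LPS, at least 3.73-fold above the limit of detection in engrafted cells without LPS and at least 4.82-fold above that in host microglia with LPS. Without a filter, 6 of 34 Gpr genes tested rather than 2 of 9 were called with LPS in engrafted cells. Gpr155, a lysosomal membrane protein, fell in engrafted cells from 80.0 ± 27.4 to 17.5 ± 9.04 CPM (log2 fold change -2.12 ± 0.32, edgeR, adjusted p = 2.513e-05) and in host microglia from 129.6 ± 20.0 to 47.7 ± 9.51 CPM (-1.46 ± 0.19, adjusted p = 1.687e-06), and was lower in engrafted cells after LPS (-1.30, adjusted p = 0.005208). Gpr162 was lower in engrafted cells without LPS (-1.02, adjusted p = 0.0228) and fell with LPS in host microglia (-2.83, adjusted p = 1.449e-06), and in engrafted cells it went from 15.5 ± 8.65 CPM to at most 3 reads per library, at least 3.21-fold lower. Gpr137 with LPS in engrafted cells (-1.01, adjusted p = 0.0004215), Gpr157 with LPS in host microglia (-1.18, adjusted p = 0.002128) and Gpr137b between populations with LPS (-1.28, adjusted p = 0.02081) made up the rest. In the interaction, edgeR and DESeq2 each called 0 of 11, where edgeR called 4.95% of all genes, and 0 of the 11 had an unadjusted p below 0.05.

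Of 69 genes that carry or end receptor signals or turn over the ligands above, 37 to 41 were tested in each comparison. With LPS, 10 of 38 (26.3%) were called in engrafted cells (2 higher and 8 lower) against 21.5% of all genes tested, and 12 of 39 (30.8%) in host microglia (3 higher and 9 lower) against 18%. Between populations, 6 of 41 (14.6%) were called without LPS (4 higher and 2 lower in engrafted cells) against 11% of all genes, and 8 of 37 (21.6%) with LPS (3 higher and 5 lower) against 11.1%. These shares are a description of the list. Of 7 alpha subunits of G proteins tested, 1 was called with LPS in each population. In the interaction, Ch25h was the 1 of 41 genes called (2.44%, against 4.95% of all genes).

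In the cyclic AMP branch, LPS called 3 of 7 effectors in host microglia, all lower, and 1 of 7 in engrafted cells. It called 1 of 4 phosphodiesterases in host microglia and 2 of 3 in engrafted cells. Of 3 adenylyl cyclases tested, 1 was called with LPS in each population. Over all genes tested, 18% were called in host microglia and 21.5% in engrafted cells, and these counts of few genes are a description. The interaction called 0 of 7 effectors, 0 of 5 phosphodiesterases and 0 of 3 adenylyl cyclases, against 4.95% of all genes. Pde4b, a phosphodiesterase that degrades cyclic AMP, rose with LPS in engrafted cells from 78.6 ± 13.1 to 329 ± 237 CPM (log2 fold change 2.04 ± 0.37, edgeR, adjusted p = 0.0002007) and in host microglia from 57.1 ± 7.79 to 213 ± 116 CPM (1.90 ± 0.29, adjusted p = 1.791e-05). Prkar1b, a regulatory subunit of protein kinase A, fell in engrafted cells (-2.41, edgeR, adjusted p = 0.0001052) and in host microglia (-1.81, adjusted p = 5.797e-06). The other effectors called in host microglia were Prkaca, a catalytic subunit of protein kinase A (-1.36, adjusted p = 1.596e-05), and Creb1, a transcription factor that this kinase activates (-1.21, adjusted p = 2.224e-05). In engrafted cells neither passed both thresholds (-0.43, adjusted p = 0.2054, and -0.95, adjusted p = 0.002223), and the difference between the responses was called for neither (interaction, edgeR, adjusted p = 0.09608 and 0.6906). Pde3b, a further phosphodiesterase, fell with LPS in engrafted cells by barely more than 2-fold (adjusted p = 0.0008299) and was lower there than in host microglia after LPS (-1.22, adjusted p = 0.0001727). Adcy9, an adenylyl cyclase, fell with LPS in both populations (-1.02, adjusted p = 0.0009079, and -1.40, adjusted p = 0.000126) and was higher in engrafted cells after LPS (40.1 ± 8.45 against 16.4 ± 2.97 CPM, log2 fold change 1.32, adjusted p = 0.002213), and Pde2a, another phosphodiesterase, was lower in engrafted cells without LPS (-2.40, adjusted p = 1.129e-05) and with LPS (-1.74, adjusted p = 0.009382).

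Among genes that end or relay receptor signals, Rgs2, which speeds the shut-off of G proteins, fell in engrafted cells from 2389 ± 157 to 639.6 ± 170.4 CPM (log2 fold change -1.94, edgeR, adjusted p = 3.301e-07) and in host microglia from 1749 ± 129 to 532 ± 175 CPM (-1.73, adjusted p = 1.729e-07). Arrb1, a beta-arrestin, fell in host microglia from 100.4 ± 7.29 to 24.3 ± 7.80 CPM (-2.08, adjusted p = 9.482e-08) and in engrafted cells from 90.9 ± 12.4 to 28.2 ± 8.79 CPM (-1.66, adjusted p = 9.234e-06), and no difference between the responses was called (interaction 0.41, adjusted p = 0.5256). The receptor kinase Grk6 was higher in engrafted cells without LPS (139 ± 7.92 against 41.6 ± 6.47 CPM, 1.80, adjusted p = 7.858e-10) and with LPS (1.24, adjusted p = 8.587e-05). The gamma subunit Gng10 was lower there without LPS (176 ± 28.1 against 555 ± 116 CPM, -1.61, adjusted p = 7.755e-09) and with LPS (-1.14, adjusted p = 0.001394). Rgs18 had 13.1 to 23.4 CPM in engrafted cells without LPS and at most 1 read in a host library, a level at least 5.76-fold above the limit of detection there.

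The genes most like Gpr65 across the 16 libraries, by Pearson's r of log2 CPM among the 6784 genes whose mean reached 20 CPM, were AI504432 (r = 0.954), Rtcb, a tRNA ligase (0.935), Lilrb4a, an inhibitory leukocyte receptor (0.914), Nap1l1, a histone chaperone (0.89), and Dab2, an endocytic adaptor (0.878). All 5 were lowest in host microglia without LPS. Without LPS, Lilrb4a stood at 693 ± 26.1 CPM in engrafted and 48.7 ± 10.1 CPM in host cells, and with LPS at 1176 ± 271 and 561 ± 36.9 CPM, so that unlike Gpr65 its mean in engrafted cells was higher with LPS. Spearman's rho gave 5 other genes, led by Ccdc88a (0.821). These values are over libraries that share 8 mice and 4 groups and are a description.

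For the other receptors, the most similar genes were Samsn1 (r = 0.986) and Tnf (0.969) for Gpr84, Pwwp2a (0.982) and Lair1 (0.981) for Gpr34, and Gtf3c2 (0.912) for Gpr183. They were Cxcl2 (0.964) and Hmox1 (0.963) for Gpr132, Matk (0.976) and Bmyc (0.973) for Gpr160, Eif2b2 (0.953) and Stat3 (0.951) for Gpr35, and Map3k8 (0.964) and Tcp1 (0.954) for Gpr18. Among the receptors themselves, Gpr34 and Gpr160 ran together (r = 0.772) and against Gpr18 (-0.841 and -0.836) and Gpr35 (-0.81 and -0.828). Gpr65 had no r above 0.653 (with Gpr132) in size to any of the others over the 16 libraries.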

How the data were processed

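RNA of engrafted cells and host microglia from 8 bone marrow chimeras was analysed as 16 libraries in 4 groups of 4, with the group and the mouse taken from the sample titles. The deposited values are raw read counts per gene. Per the methods and the file header, the authors mapped reads to mm9 with HISAT (0.1.5 in the submitters' processing notes, a later release in the methods), kept unique alignments, and let HOMER count reads on exons of 1 transcript model per gene on the sense strand. No removal of PCR duplicates is named, so limits of detection (3 reads) cover counting error only.

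Tests used R 4.3.3 and edgeR 4.0.16 (quasi-likelihood F-test, TMM, minimum count 10 and minimum total 15, prior count 0.125), with Benjamini-Hochberg adjustment over all genes tested, and genes were called that changed more than 2-fold (log2 beyond 1) with adjusted p under 0.05. Only the groups compared entered a fit, except for the interaction, which used all 16 libraries and is the change with LPS in engrafted cells minus that in host microglia. SE were derived from the unshrunken fold change and its F statistic. CPM use effective library sizes over the 16 libraries. For members that the filter removed, 4 exact permutation tests (two-sided) were run, without adjustment. Those between populations took the libraries as independent, although they came in pairs from the same mice. A fold against a group with at most 3 reads in every library is a lower bound against 3 reads per library. The tests were checked on counts simulated with the fitted dispersions, with changes placed only in genes with many reads. This check covered neither changes in genes with few reads nor the pairing of libraries by mouse. p-values measure the spread between mice, since each library of a group came from another mouse. Differences between replicates were 2.07 to 10.1 times counting noise (chi-square per degree of freedom, 24 pairs), so no library was a copy of another.

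Both libraries of a mouse come from the same animal by their titles. Over genes, their deviations from the group means correlated in mice 1 to 8 with Pearson's r of 0.146, 0.0187, 0.21, 0.126, 0.0243, -0.0298, 0.0477 and 0.0835. The mean r of the engrafted library with host libraries of the other mice was -0.0415, -0.000941, -0.0629, -0.0537, -0.00326, 0.00801, -0.0154 and -0.0308. The r within a mouse was thus the higher in all mice but mouse 6. As deviations within a group cancel out, both values are tied to each other. The study's methods describe no such block, so the pairing entered only as an alternative, with the mouse as replicate block.

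The members and the gene lists (other Gpr genes, signalling and ligand genes, cell type markers) were chosen with earlier results of these data known. Named genes besides the members are up to 4 called genes per list and comparison with the largest absolute log2 fold change, relatives and ligand enzymes of the members whatever their values, and the genes with the most similar pattern (log2 CPM, prior count 2, mean of at least 20 CPM). Gpr141, Prkaca, Creb1 and Pde3b were named outside this rule. Sequences were read from the mm9 genome (NCBIM37) at the deposited coordinates, and coding sequences from GENCODE M1 of the same build were translated and aligned globally with Biopython 1.88 (BLOSUM62). The results of some genes of these lists are not reported here. As alternatives, libraries were scaled by RLE size factors or by their totals, the filter was left out or raised to 10 reads in each library, DESeq2 1.42.0 replaced edgeR, 1 fit took all groups, the replicate block was added, Spearman's rho replaced Pearson's r, and each library in turn was left out.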

Additional observations from a re-analysis of the deposited data

Results flagged for a closer look

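Among 32 sets of 4 libraries (8 receptor genes in 4 groups), 2 held a library far from the other 3 by Dixon's test, of which chance gives about 1 in 20. Gpr183 had 243.9 CPM in the engrafted cells of LPS-treated mouse 4 against 113 to 133 CPM in the other 3 mice, and this library was the shallowest of the series. Gpr35 had 18.9 CPM in the host microglia of LPS-treated mouse 2 against 27.5 to 29.0 CPM in the other 3.

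The response to LPS differed between engrafted cells and host microglia, by a test of the difference itself, for Gpr183 (interaction -1.59 on the log2 scale, edgeR quasi-likelihood test, adjusted p = 0.0005316) and for Gpr84 (1.13, adjusted p = 0.03996). Of both, the first was called in each of the 16 fits that leave out a library, and the second in 6 of them.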

How the results depend on the processing

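Over the alternatives, 498 of 544 values of single receptor genes were kept, 19 lost and 15 gained a call and 12 changed sign. A value was kept if its direction and its side of the threshold held. Values of Gpr65, which has no call, were kept if the direction held and the shift stayed below the SD within groups. The interaction of Gpr132 was left out of these values. The sign changes concern the interaction of Gpr160 (-0.02), which was 0.019 with RLE size factors, 0.026 with DESeq2, 0.023 without a filter, 0.033 with the replicate block and -0.252 to 0.345 without any 1 library. The replicate block, which pairs both libraries of a mouse, changed no call of a receptor gene other than the gain for Gpr18 in the interaction (-3.27). The cause of each change was not tested unless the setting itself gives it, as where a filter changes how many genes are tested.

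Between populations without LPS, the receptor genes other than Gpr65 called were 2 in place of 1 with library totals, without a filter and with all libraries in one fit, and 1 to 2 without any 1 library. The other Gpr genes called were 2 in place of 1 with library totals, 3 without a filter, 0 with at least 10 reads in every library and 0 to 3 without any 1 library. Without a filter, 11 signalling genes in place of 6 and 1454 of all genes in place of 883 were called, and 402 of all genes with at least 10 reads in every library.

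Between populations with LPS, the receptor genes called were 3 in place of 5 with at least 10 reads in every library, where fewer were tested, and 3 to 6 without any 1 library. The other Gpr genes called were 1 in place of 2 with DESeq2, 0 with at least 10 reads and 1 to 3 without any 1 library. Signalling genes were 13 in place of 8 without a filter, and all genes 1352 without a filter and 381 with at least 10 reads, in place of 868.

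With at least 10 reads in every library, LPS called 3 receptor genes in place of 7, 1 other Gpr gene in place of 2 and 816 of all genes in place of 1636 in engrafted cells, and 2 in place of 5, 1 in place of 3 and 871 in place of 1484 in host microglia. In engrafted cells, the other Gpr genes called with LPS were 6 without a filter, 4 with all libraries in one fit and 1 to 3 without any 1 library, and in host microglia 3 to 5 without any 1 library. In the interaction, 4 receptor genes in place of 2 were called without a filter and 1 to 3 without any 1 library. Signalling genes called there were 2 in place of 1 with RLE size factors, 2 with DESeq2, 3 without a filter and 1 to 4 without any 1 library, and all genes were 251 in place of 438 with at least 10 reads. Of the 5 genes most like Gpr65 by Pearson's r, 0 were among the 5 by Spearman's rho.

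Depth limits Gpr132, Gpr35 and Gpr18 most, whose unchallenged groups held 5 to 45 reads in sum.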
